A study of Mus musculus with 6 samples.

Results

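Tdrd9 and 9 other genes of the germline small RNA pathway were followed in naive CD4 T cells with and without Trim28. The genes were listed by name (Tdrd9, Tdrd1, Tdrd5, Tdrd7, Tdrkh, Mov10l1, Asz1, Mael, Piwil2 and Piwil4), and each was taken from the transcript row of the deposited table whose RefSeq accession maps to that symbol. Of the 10 genes, 6 had a row, each exactly 1, among 16911 named genes and 19048 rows. Tdrd1, Tdrd5, Asz1 and Mael had no row and were not analysed here. RNA came from naive CD4 T cells, enriched on magnetic columns and flow sorted, of the C57BL/6 strain. Every library title carries the label D0. The wild-type group (WT1 to WT3, littermates) and the group labelled Trim28 KO (KO1 to KO3) had 3 libraries each. Age, the driver and extent of the Trim28 deletion, and whether every library stands for its own mouse are not given in the sources used here. The p-values therefore cover differences among these libraries, which may be technical. Library depth ran from 22005759 to 44372701 reads.

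PIWI-interacting RNAs (piRNAs) are small RNAs of the germline. PIWI proteins carry them to the transcripts of transposons, which are then cut or silenced by DNA methylation, and the loss of the pathway in mice leaves males infertile. Proteins with Tudor domains bind methylated arginines of the PIWI proteins and gather the machinery into granules beside the mitochondria of germ cells. Mature T cells are not known as a site of this pathway. Trim28 is itself a silencer of transposons, acting through histone methylation.

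The members divide by role. Piwil2 (MILI) and Piwil4 (MIWI2) are the PIWI proteins. Mov10l1 is the RNA helicase that starts piRNA production, and Tdrkh is a mitochondrial Tudor protein that holds PIWI proteins during trimming of the small RNA. Tdrd7 is a Tudor protein of germ cell granules that also acts in the lens of the eye. Tdrd9 couples an ATPase of the DExH helicase type to a Tudor domain and acts with Piwil4 in silencing LINE-1 elements in fetal male germ cells.

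Promoter sequences of 3 members are shown because Tdrd9 was high in the Trim28 KO, Mov10l1 was at or near 0 in each library, and Tdrkh was expressed in both genotypes. Each run is the 250 bases upstream of an annotated transcript start, 5′ to 3′ on the strand of the gene, from RefSeq on GRCm38.p6, the assembly of mm10. Capitals mark CACGTG, the E-box bound by Max and its partners, and AACGG, the core of sites of the Myb family, of which A-Myb drives piRNA genes in the testis. Both motifs were searched on both strands and do not overlap each other.
Tdrd9, chr12:111971309-111971558, plus strand: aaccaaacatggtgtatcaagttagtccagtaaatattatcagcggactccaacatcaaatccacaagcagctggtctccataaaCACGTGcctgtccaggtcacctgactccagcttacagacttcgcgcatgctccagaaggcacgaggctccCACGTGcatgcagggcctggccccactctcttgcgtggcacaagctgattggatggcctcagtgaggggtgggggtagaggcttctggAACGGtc
Mov10l1, chr15:88982744-88982993, plus strand: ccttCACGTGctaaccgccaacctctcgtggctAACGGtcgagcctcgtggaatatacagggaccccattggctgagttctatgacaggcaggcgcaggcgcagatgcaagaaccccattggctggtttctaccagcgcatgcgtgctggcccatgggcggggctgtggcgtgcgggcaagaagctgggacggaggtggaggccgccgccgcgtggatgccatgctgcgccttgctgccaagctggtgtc
Tdrkh, chr3:94412994-94413243, plus strand: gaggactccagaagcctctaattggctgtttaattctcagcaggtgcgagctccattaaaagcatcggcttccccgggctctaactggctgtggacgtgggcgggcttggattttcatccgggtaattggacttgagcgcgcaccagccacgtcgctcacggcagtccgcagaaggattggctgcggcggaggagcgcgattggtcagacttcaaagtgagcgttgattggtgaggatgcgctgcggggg

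The Tdrd9 window held the E-box at 165 and 95 bases before the start and the Myb core at 7 bases before it. These motifs were chosen after the Tdrd9 sequence had been read, so its matches are a description. The window ends at the start of the transcript that GENCODE M21 pairs with the row (NM_029056). The Tdrkh window ends 74 bases before the start of the transcript paired with its row. Mov10l1 carried 1 match to each motif, at 246 and 217 bases before its start, and Tdrkh carried neither. Among the 9 members with a promoter window, 14 windows in all, 4 genes had the E-box, 4 had the Myb core, and Tdrd9 and Mov10l1 had both in 1 window. Of all 32851 windows of the same length, 6.02% held the E-box, 14.5% held the Myb core and 0.974% held both. These shares are per window. The tallies of members are per gene and include Tdrd9, so the comparison is a description and not a test. The Tdrd9 window was not rich in CpG, with 8 CpG dinucleotides against a median of 6 over all windows, while the Mov10l1 and Tdrkh windows had 19 each. These matches describe the letters only. Whether a factor binds there, whether the DNA is methylated, or whether transcription begins at these annotated starts in either genotype was not measured.

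Trim28, the deleted gene, was measured first. Wild-type libraries held 8429, 8287 and 9428 normalized reads of it, and knockout libraries 738, 628 and 1247, so the libraries match their labels. A normalized read count is the number of reads divided by a size factor for the library.

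Tdrd9 went from almost no reads to the level of a well-expressed gene when Trim28 was missing. Its normalized read count was 1.39, 2.20 and 0 in WT1, WT2 and WT3, from 1, 2 and 0 reads. It was 3944, 5344 and 5280 in KO1, KO2 and KO3, from 5524, 3667 and 6625 reads. Every knockout library was high and every wild-type library was at or near 0, with no overlap.

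Over the pooled reads, 15816 in the knockout against 3 in the wild type, the ratio was 4608 (95% exact binomial interval 1576 to 22346, counting error only). In the fit across all rows, the log2 fold change was 11.25 (SE 0.39, limma adjusted p 2.87e-06, n = 3 per group), on the log2 scale with a pseudocount of 1, which understates the change of a gene so low in the wild type. It was the largest of 13022 log2 fold changes. For the Tdrd9 values alone, a two-sided exact permutation test returned p = 0.1, its lowest possible value with 3 libraries a side. Its direction and its call held in each of 18 other settings, with log2 fold changes from 9.62 to 11.85 and adjusted p of at most 0.000717. The gene was put on the list with its rise already known.

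The knockout libraries were even for Tdrd9. The coefficient of variation over KO1, KO2 and KO3 was 16.3%, and the highest, KO2, was 1.35-fold above the lowest, KO1. KO3 kept the most Trim28, at 14.3% of the wild-type mean against 8.46% in KO1 and 7.21% in KO2, and its Tdrd9 level lay beside that of KO2.

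KO3 also stood apart in transcripts of other cell types. The summed normalized read count of 6 B cell markers was 1467 in KO3 and 171 to 324 in the other 5 libraries, that of Cd8a and Cd8b1 was 4416 against 561 to 1065, and that of 5 effector and memory T cell markers was 2048 against 178 to 323. Tdrd9 was as high in KO2, where those sums were 188, 708 and 189. Without KO3 its log2 fold change was 11.19 (limma adjusted p 5.52e-07). Transcripts of the Y chromosome were present in WT1 and KO2 (sums of 13625 and 12677 for 4 genes) and at most 2.39 in the other 4 libraries. Tdrd9 went from 1.39 to 5344 between WT1 and KO2, and from 2.20 and 0 to 3944 and 5280 among the libraries with nearly no Y-linked reads. With Y-linked transcripts as a covariate its log2 fold change was 11.24 (SE 0.42, limma adjusted p 8.45e-05).

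**Figure D1:**
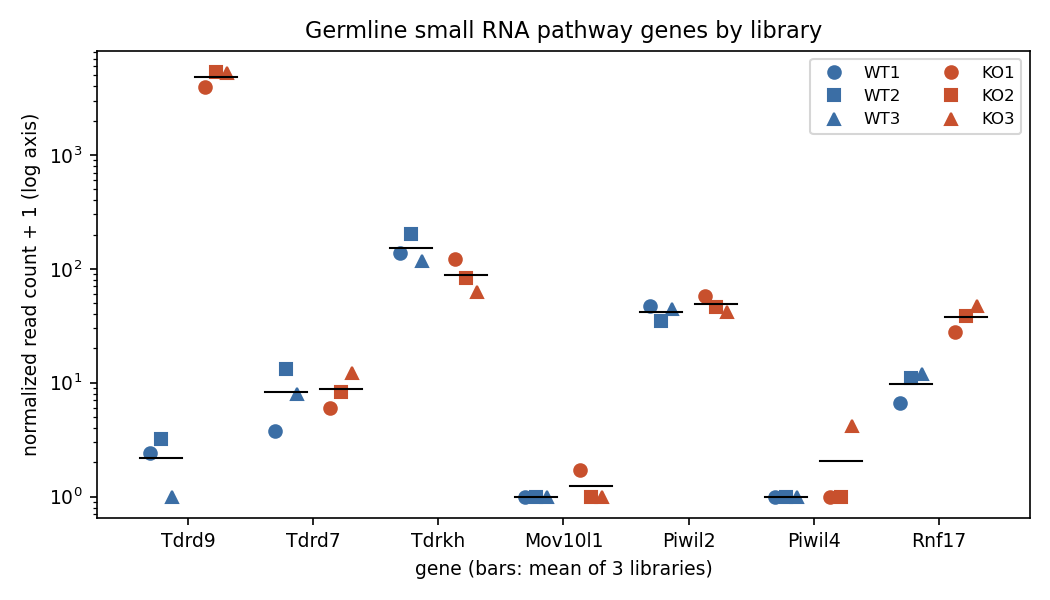
Normalized read count plus 1 on a log axis for the 6 listed genes with a row and for Rnf17, another Tudor gene of the pathway. Each point is 1 library (blue WT, red KO, shape by library number) and each bar is the mean of 3. Tdrd9 lies at 0 to 2.20 in the WT libraries and at 3944 to 5344 in the KO libraries, the values of Rnf17 do not overlap between genotypes, and those of the other genes do.

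Of the 6 genes with a row, 3 reached the minimum mean of 10 normalized reads and were tested, and Tdrd9 passed that minimum through its knockout values alone. Among these 3, Tdrd9 rose, none fell and 2 did not pass. Over all tested rows, 1.19% (155) rose and 0.315% (41) fell at a limma adjusted p under 0.05. The number that fell ranged from 14 without WT1 or WT3 to 199 without KO3.

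Tdrkh stood at 135, 202 and 117 normalized reads in the wild type (WT1 to WT3). The knockout values, KO1 to KO3, were 121, 81.6 and 61.4. KO1 lay within the range of the wild type, so the groups overlapped. The log2 fold change was -0.79 (SE 0.29, 95% interval -1.46 to -0.12) with an unadjusted p of 0.0258 and a limma adjusted p of 0.307, and it was not called in any of 18 other settings. The lowest value, 61.4, was in KO3.

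Piwil2, the PIWI protein of the fetal and postnatal male germline, stood at 46.0, 34.1 and 43.3 normalized reads across the wild type. Knockout values were 57.1, 45.2 and 40.6. The groups overlapped. The log2 fold change was 0.20 (SE 0.26, limma adjusted p 0.794), with a 95% interval from -0.39 to 0.80.

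Tdrd7 had 2, 11 and 9 reads in WT1 to WT3, and 7, 5 and 14 reads in KO1 to KO3. The pooled ratio was 1.03 (95% exact binomial interval 0.563 to 1.91), so a difference within that interval was not detectable at this depth. Mov10l1 had 0 reads in every wild-type library and 1 read in KO1, which is at or under the 3 reads that a count of 0 allows, so no fold is given. Piwil4, the partner of Tdrd9 in the germline, had 0 reads in WT1, WT2, WT3, KO1 and KO2 and 4 reads in KO3. The wild-type count of 0 allows up to 3 reads, close to those 4, so no fold is given. The reads came from the library that stood apart in other markers. In GENCODE M21, Gm10706 shares exon bases with the transcript of Piwil4. Whether any of the 4 reads fell on those bases was not tested.

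Defining markers of germ cells were at or near 0. Of these, Ddx4 had 1 read, Stra8 1, Dazl 2 and Zp3 1 over all 6 libraries. Sycp3, a germ cell marker that was tested and not called, was at 13.1 to 18.7 in the wild type and 9.28 to 27.7 in the knockout. The naive CD4 T cell markers were high, with Cd4 at 31880 to 34970 in the wild type and 27990 to 32564 in the knockout. In bulk RNA, more cells with a transcript and more transcript per cell cannot be told apart.

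Levels of different genes were compared per kb of transcript, using the GENCODE length paired with each row. Each row is a single RefSeq transcript, so it can miss reads of other transcripts of its gene. Whether that holds for low rows such as Tdrd7, or Setdb1 and Drosha (17 reads each over the wild type), was not tested. The orders and ranks here and below therefore compare rows, not whole genes. In the wild type the order was Tdrkh (44.1 to 76.6 normalized reads per kb), Piwil2 (6.94 to 9.36), Tdrd7 (0.75 to 3.26), Tdrd9 (0 to 0.458), then Mov10l1 and Piwil4 at 0. The ranges of neighbours in that order did not overlap down to Tdrd9, which overlapped those at 0. In the knockout Tdrd9 came first (820 to 1111 per kb), followed by Tdrkh (23.2 to 45.7), Piwil2 (8.27 to 11.6), Tdrd7 (1.34 to 3.0), Piwil4 and Mov10l1.

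Ranked by row, Tdrd9 stood high in the knockout. It exceeded 85.3%, 89.0% and 89.2% of 18607 rows with a length per kb in KO1, KO2 and KO3, against 16.5%, 19.0% and 0% in WT1, WT2 and WT3. Of 17 other listed helicases of DEAH-box or DExH-box type, none lay below Tdrd9 per kb in any wild-type library. In KO1, KO2 and KO3, 12, 13 and 13 lay below it. Of 19 general Tudor-domain genes, the counts in the knockout were 13, 14 and 14. Of 20 genes of the microRNA and Argonaute machinery, the small RNA pathway that T cells do use, 14, 17 and 17 were below Tdrd9.

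**Figure D2:**
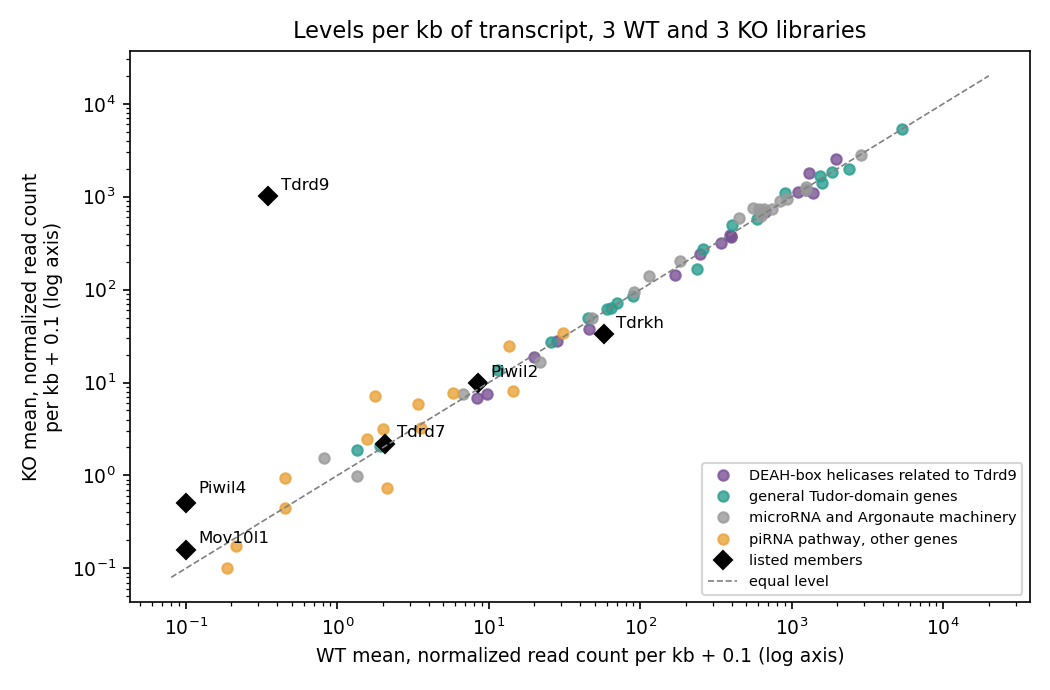
Mean normalized read count per kb of transcript plus 0.1 in 3 WT libraries (horizontal, log axis) against 3 KO libraries (vertical, log axis). Black diamonds are the listed genes, coloured points are genes of 4 related lists, and the dashed line is equality. Tdrd9 lies far above the line, near 1010 per kb in the KO, among the DEAH-box and microRNA genes, while Tdrkh, Piwil2 and Tdrd7 lie close to it.

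Rows silent in the wild type were counted as well. In that group, 3384 rows had at most 3 reads over the 3 libraries. In the knockout, 3346 of these had a mean under 10, 5 reached at least 100 in every library, and Tdrd9 was the 1 row to reach at least 1000 in every library. These counts describe the table and were made with the rise of Tdrd9 known.

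The genes around Tdrd9 were examined next. Tdrd9 lies on chromosome 12 (111971488 to 112068854, mm10), and its transcript has 36 exons on the plus strand. Within 500 kb of its start the RefSeq table lists 38 other genes, of which 16 had a row and 12 were tested, all upstream. Of the 12, limma called 0 and 1 fell below 0.05 before adjustment, and voom weights on reads called 0. Over all tested rows, 12.7% had an unadjusted p under 0.05 and 1.19% and 0.315% were called as higher and lower, so with 12 genes a count of 0 or 1 is near the background. Their log2 fold changes ran from -0.36 to 0.34.

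The nearest tested gene was Atp5mpl, which encodes a small subunit of ATP synthase and starts 10.1 kb upstream. Its normalized read count was 3683 ± 389 in the wild type and 3452 ± 596 in the knockout (SD, n = 3 per group; log2 fold change -0.10, limma adjusted p 0.81, and 0.05 on the log2 scale without KO1). Ppp1r13b, a regulator of p53, starts 143 kb upstream and had the smallest p, with 4120 ± 138 and 5055 ± 781 (log2 fold change 0.28, limma adjusted p 0.347). On the downstream side, Kif26a and Mir203 had 1 read each over the 6 libraries.

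No other gene in GENCODE M21 shares exon bases with the transcript of Tdrd9. Rd3l, on the minus strand, lies within its span and had no row. The sources used here do not say if reads were counted by strand. Beside the other 5 members with a row, the nearest gene with a row on each side gave 10 genes, 6 of them tested and 0 called, with log2 fold changes from -0.38 to 0.67.

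**Figure D3:**
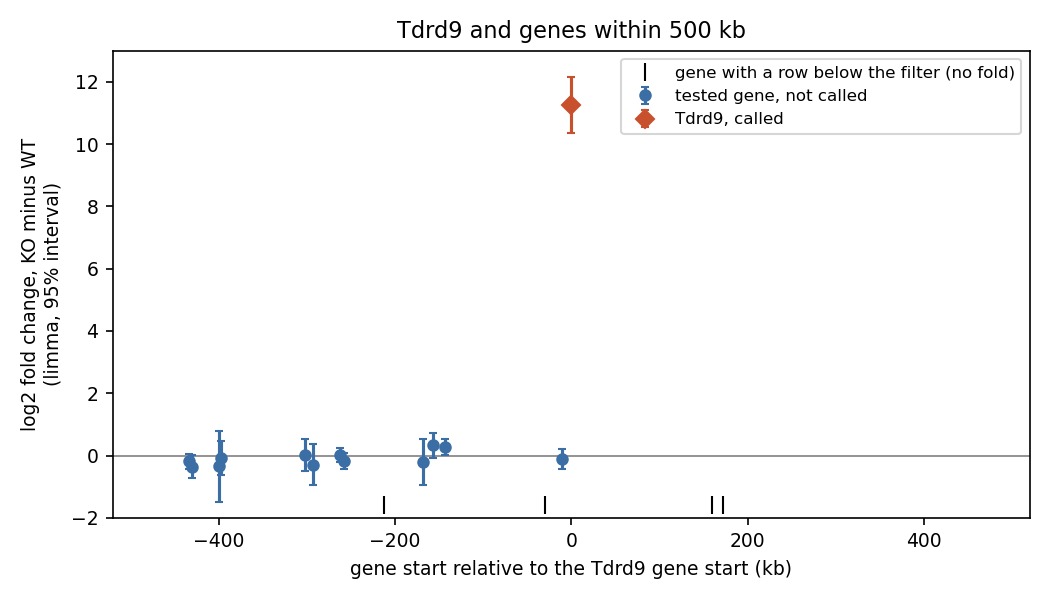
Log2 fold change of KO minus WT with its 95% interval from limma (n = 3 per group), against the distance of each gene's start from the start of Tdrd9 in kb. Tdrd9 stands at 11.25, and the 12 tested neighbours lie between -0.36 and 0.34. Ticks mark the 4 genes with a row below the minimum mean, which have no fold.

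A list of 24 other piRNA pathway genes was examined, of which 16 had a row and 6 were tested. Of these, 0 rose and 0 fell in limma (1 had an unadjusted p under 0.05, as did 12.7% of all tested rows, and 0 were called with voom weights on reads). Their median log2 fold change was 0.58, over 6 genes with low counts, against 0.0019 over all tested rows. The other 10 were below the minimum mean, at no more than 9.27 normalized reads in any library, among them Ddx4, the Vasa helicase, Mybl1, which encodes A-Myb, and Henmt1, which methylates the ends of piRNAs. The counting of list members uses genes picked for their known role, after earlier results of this table were known.

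Rnf17, a Tudor protein of germ cells, came nearest. Its wild-type mean of 8.77 lay under the minimum of 10, so it was tested only because of its knockout values. The list median above includes it. Wild-type values were 5.58, 9.90 and 10.8 normalized reads, and those of KO1, KO2 and KO3 were 27.1, 37.9 and 46.2. The groups did not overlap, which was so for 18.8% of all tested rows. The log2 fold change was 1.98 (SE 0.41) with a limma adjusted p of 0.0644, and it stayed above 0.05 in each of 17 other settings (0.0575 to 0.232). Over the pooled reads, 122 against 27, the ratio was 3.95 (95% exact binomial interval 2.59 to 6.24, counting error only). In the knockout its level per kb was 7.04, against 1010 for Tdrd9.

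The other tested genes of that list overlapped between genotypes. Nanos2, an RNA-binding protein of male germ cells, was at 21.1 ± 11.5 and 38.2 ± 12.4 (SD, n = 3 per group). Pnldc1, the trimmer of piRNA ends, was at 29.8 ± 10.2 and 16.8 ± 2.19, and Exd1, a partner of Tdrd12, at 19.9 ± 5.46 and 35.1 ± 16.0. Tex15, which acts with Piwil4, was at 16.0 ± 3.19 and 26.0 ± 17.5 (log2 fold change 0.45, and -0.04 without KO3), and Btbd18, a regulator of piRNA loci, at 93.3 ± 22.2 and 104 ± 7.72. Over the members and this list together, 34 genes with 22 rows, Tdrkh was the 1 gene at 100 or more in every wild-type library and Tdrd9 the 1 gene at 100 or more in every knockout library.

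Of 35 other germline genes, mostly meiotic, 24 had a row and 10 were tested. Of the 10, limma called 0 and voom weights on reads called 0. In limma, 1 had an unadjusted p under 0.05, as did 12.7% of all tested rows. The median log2 fold change of the 10 was 0.10. Ddx43, an RNA helicase of the testis, was the lowest, at 163, 132 and 111 normalized reads for the wild type and 72.8, 68.5 and 64.6 for the knockout. Its groups lay apart, as did those of 18.8% of all tested rows. Its log2 fold change of -0.96 (SE 0.20) had a limma adjusted p of 0.0644. Stag3, the meiotic cohesin subunit, was at 25.1, 19.8 and 37.8 in the wild type and 25.0, 80.1 and 111 in the knockout, with overlap and a limma adjusted p of 0.417.

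Lists that share a domain or a small RNA role with Tdrd9 held no call over all 6 libraries, and a few without KO3, where 4.30% of all tested rows were called. Counts at an unadjusted p under 0.05 in these lists are to be read against the 12.7% of all tested rows. None of the 17 listed helicases of DEAH-box or DExH-box type was called in limma (2 had an unadjusted p under 0.05, and 0 were called with voom weights). Their log2 fold changes ran from -0.37 to 0.47. Dhx40 had the largest, at 4956 ± 804 and 6800 ± 398 (SD, n = 3 per group; limma adjusted p 0.157), and Dhx16, a splicing helicase, was at 4646 ± 385 and 3630 ± 261 (limma adjusted p 0.16). Without KO3, Dhx16 was called as lower (log2 fold change -0.41, limma adjusted p 0.0484) and Dhx9, an RNA helicase, as higher (log2 fold change 0.54, limma adjusted p 0.035).

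Of 17 tested Tudor-domain genes with general roles, limma called 0 (3 below 0.05 before adjustment), and voom weights called 0. Zgpat, a transcriptional repressor, had the smallest p, at 526, 485 and 453 normalized reads for the wild type and 351, 316 and 380 for the knockout (limma adjusted p 0.132). Phf20, a reader of methylated histones, was called as higher when KO3 was left out (log2 fold change 0.41, limma adjusted p 0.0376). Of 18 tested genes of the microRNA and Argonaute machinery, limma called 0 (1 below 0.05 before adjustment), and voom weights called 0. Ago2, the slicing Argonaute, was at 7692 ± 1503 and 10558 ± 4148, and was called as higher without KO3 (log2 fold change 0.72, limma adjusted p 0.0416). Ago1 was at 3218 ± 502 and 4215 ± 954, and both genes overlapped between genotypes. The list named for symmetric arginine methylation held Prmt5, which makes the mark that Tudor domains read, its partners, and the methyltransferases Prmt7 and Prmt9. Its 6 tested genes had log2 fold changes from -0.14 to 0.10. Of these, 0 were called in limma, 0 had an unadjusted p under 0.05 and 0 were called with voom weights.

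Silencing corepressors formed the list that held other calls. Among its 20 tested genes, 17 did not pass, 2 rose and the deleted gene fell, against 1.19% and 0.315% of all tested rows that rose and fell. Resf1, which takes part in silencing retroelements, was at 101 ± 11.4 and 512 ± 124 (SD, 3 libraries each), with a log2 fold change of 2.31 (SE 0.20). The chromatin ATPase Morc3 was at 10411 ± 847 and 30359 ± 7053. Both rises held in all 18 other settings. Atf7ip, a partner of Setdb1, was called as higher without KO3 (log2 fold change 0.97, limma adjusted p 0.0028). The rises of Resf1 and Morc3 were known from earlier results of this table.

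**Figure D4:**
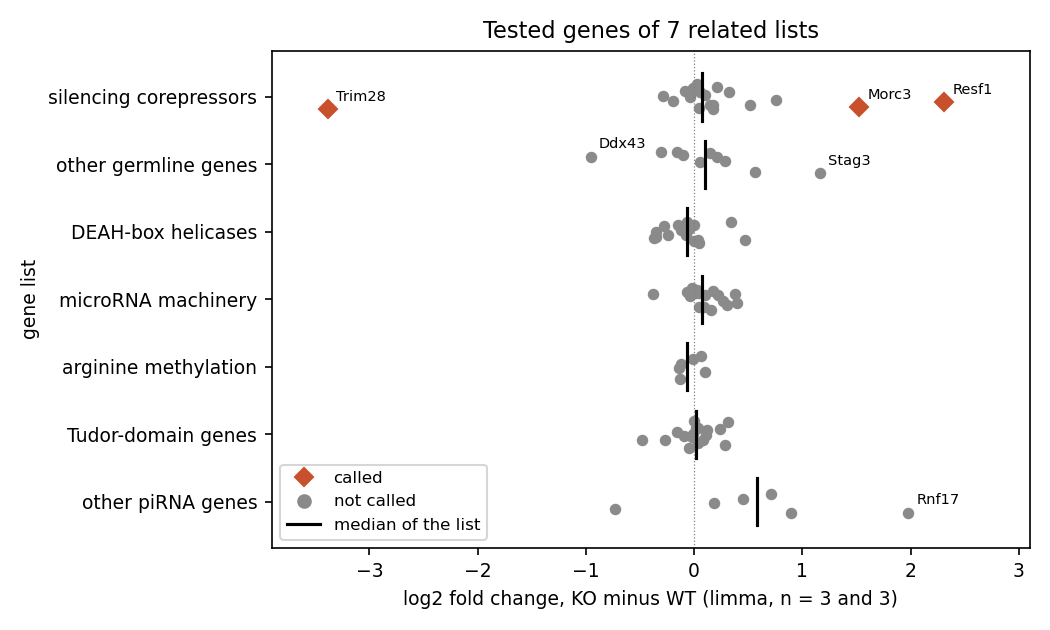
Log2 fold change of KO minus WT (limma, n = 3 per group) for the tested genes of 7 related lists. Orange diamonds are called genes, grey points are not called, and black bars are list medians. Calls are seen among the silencing corepressors alone (Trim28, Resf1, Morc3), and Rnf17, at 1.98, is the highest of the other piRNA genes.

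Over the 6 libraries, the tested genes whose log2 values were most like those of Tdrd9 by Pearson correlation were Nrp1 (r = 0.998), Icosl (0.997), Gm16386 (0.997), Vmn2r96 (0.996), Abca1 (0.996) and Usp18 (0.995). The 6 points fall into the 2 genotypes, so any gene with an even difference between them scores high, and the values are a description. Nrp1, a co-receptor for semaphorins, went from a mean of 370 to 4496, and Icosl, a ligand of the costimulatory receptor Icos, from 274 to 710. The same measure was -0.71 for Tdrkh and 0.42 for Piwil2.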

How the data were processed

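RNA of 6 libraries, 3 WT and 3 Trim28 KO, was read as 100 bp pairs, per the labels' protocols. STAR, HTSeq, DESeq2 and mm10 are named in the submitters' processing notes, without versions or roles. The authors deposited log10 values, which turn back (10 to the power of the value, minus 1) into whole multiples of 1 step per library for 100% of values, within 0.01 of a whole number. Each step stands for a single read, which recovered the reads. Accessions were named through RefSeq (18811 rows) and GENCODE M21 (104 rows), and 133 rows stayed unnamed.

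Rows with a mean normalized read count of at least 10 were tested across all rows with limma 3.58.1 in R 4.3.3 on log2 of the count plus 1, with trend, two-sided, with calls made below 0.05 after Benjamini-Hochberg adjustment. The fit was tested on simulated data. Of 100 rows given a log2 change of 1 in either direction, it called 79. Of 100 given a change of 2 it called 91, and of 12822 unchanged rows it called 15. Counting intervals assume independent reads, so they leave out PCR copies and the spread between libraries. The members, lists and tests were chosen with earlier results of these data known. Named genes were the members, the neighbours of Tdrd9, the nearest gene with a row (rather than the nearest gene) beside other members, called genes and up to 4 further genes with the smallest p of each list, Trim28, markers, and the 6 genes most like Tdrd9. Not every gene this rule took is printed, and Ago2, Btbd18, Tex15, Henmt1, Mybl1 and Ddx4 in its list were added after their values were seen.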

Additional observations from a re-analysis of the deposited data

How the results depend on the processing

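Tdrd9 was called as higher in all 18 other settings, with a log2 fold change of 9.62 at a pseudocount of 5 and 11.85 with voom weights on reads. Of the other genes with a tested row named as members or as Rnf17, none was called in any setting and none changed sign. Without KO3, calls were added for Dhx16, Dhx9, Phf20, Ago2 and Atf7ip, and Gm16386 was called without the trend (adjusted p 0.0139). Signs were compared across settings for a chosen part of the named genes, not for all tested rows. Among those of this part that were never called, the log2 fold change turned in sign for Tex15, Atp5mpl and Sycp3. When 1 library was left out, it ran from -0.040 (without KO3) to 0.99 (without KO1) for Tex15, from -0.19 (without KO2) to 0.048 (without KO1) for Atp5mpl, and from -0.16 (without KO2) to 0.58 (without KO1) for Sycp3, which was at -0.047 with quantile normalization. The cause was not tested. The number of called rows, 196, was 124 without the mean-variance trend, and ran from 113 (without KO2) to 553 (without KO3) when 1 library was left out, with 124 without WT1 and 127 without WT3. Split by direction, 155 rows were higher and 41 lower, against 354 and 199 without KO3, 94 and 19 without KO2, 110 and 14 without WT1, 113 and 14 without WT3, 107 and 17 without the trend, and 169 and 27 when reads were scaled to library totals (CPM). Other scalings gave 195 to 198 calls, and moved the median of all rows by less than 0.1 on the log2 scale. Without a filter, Tdrd7, Mov10l1 and Piwil4 had adjusted p of 0.92, 0.83 and 0.768 in limma.

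The labels give both genotypes the numbers 1 to 3. Deviations from the group means correlated at -0.31, 0.26 and 0.36 for the same-numbered libraries 1, 2 and 3. The highest value was 0.37, for WT2 with KO1. Deviations from a mean of 3 libraries depend on each other, so this check cannot show whether the numbers pair the libraries. With the replicate block, 175 rows were called and the log2 fold change of Tdrd9 was 11.25 (limma adjusted p 3.12e-05). Few reads limit Tdrd7, Mov10l1 and Piwil4. A change of Tdrd7 within its interval was not detectable, and no fold could be given for Mov10l1 and Piwil4.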
